A study of Bos taurus with 6 samples.

Results

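Tight and adherens junctions hold the cells of the early embryo together, and 9 of their core genes were followed in bovine embryos. Of these, CDH1, CTNNB1, CTNNA1 and CTNND1 belong to adherens junctions, while CLDN4, CLDN7, OCLN, F11R and TJP1 belong to tight junctions. The members were all probe sets, the groups of short oligonucleotides that stand for a transcript on the Affymetrix Bovine Genome Array, whose annotation gave one of these symbols. There were 10 such probe sets, for 7 of the 9 genes, among 24036 in the deposited value table. CTNND1 and OCLN had no probe set annotated to them here and are not described further.

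Embryos of 2 kinds, both produced by in vitro fertilization, were compared at day 8 of culture. In the blastocysts, an inner cell mass and a fluid-filled cavity, the blastocoele, could be seen. The degenerative embryos had compacted as morulae like the blastocysts but had not gone on to form a blastocyst. Each group had 3 pools of 20 embryos from mixed bulls and cows, named A, B and C, with 1 array per pool, so a value averages over embryos that may differ in stage. No treatment or allele separated the groups, which were defined by morphology alone. Values are log2 expression from GCRMA, a method that corrects, normalizes and summarises probe signals, so a difference of 1 is a doubling of signal. The lowest value was 2.12, and a probe set within 0.01 of it was counted as at the floor. Differences are given as degenerative embryos minus blastocysts.

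In an adherens junction, E-cadherin, the product of CDH1, binds the same protein on the neighbouring cell. Its tail holds beta-catenin (CTNNB1), which holds alpha-catenin (CTNNA1), and this last protein couples the complex to actin. This adhesion drives compaction of the morula. Tight junctions form above it in the outer cells, which become the trophectoderm, the first epithelium. Claudins and junctional adhesion molecules span the membrane, and ZO proteins such as TJP1 anchor them inside the cell. The seal lets the trophectoderm keep the fluid that it pumps into the blastocoele.

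The 6 arrays were alike in the median of the probe sets tested, from 6.35 to 6.48, and in the share of probe sets at the floor, from 27.4 to 28.6 percent. Degenerative pool A lay farthest from its group, with 16.9 percent of probe sets more than 1 from the group mean, against 1.16 to 6.27 percent in the other 5 pools. Its lowest correlation with another degenerative pool was 0.936, and the lowest among blastocyst pools was 0.972. Many differences below are also given without this pool.

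No tested probe set of the junction genes passed the test between degenerative embryos and blastocysts. With limma and Benjamini-Hochberg adjustment over all 18937 probe sets tested, 0 of 9 member probe sets reached the threshold, an adjusted p no higher than 0.15, and the smallest was 0.679. The tenth, for TJP1, had a single value on all arrays and could not be tested. Over the array, 4 probe sets passed, or 0.0211 percent. SAM, the test of the study's methods, called 0 of the 9, with 67 called over the array, or 0.354 percent. At an unadjusted limma p under 0.05 there were 0 of 9, where 8.61 percent of the array lay under it. The groups overlapped for all 9, while over the array 8.93 percent of probe sets did not overlap with degenerative embryos lower and 6.48 percent did not with degenerative embryos higher. Of the 9, 4 had a higher mean in degenerative embryos and 5 a lower one, and their median difference was -0.00, as was that over the array, at 0.00. That median of the 9 was the value of a TJP1 probe set at the floor. Of the 8 above a mean of 5 in either group, 4 were higher and 4 lower. Their median difference was 0.05, against -0.02 over the probe sets of the array above that level. One of the 9, that of CLDN7, differed by more than 1, which is 11.1 percent beside 10.9 percent of the array. With 3 pools per group, the 95% intervals given below show which sizes of difference these arrays leave possible.

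**Figure D1:**
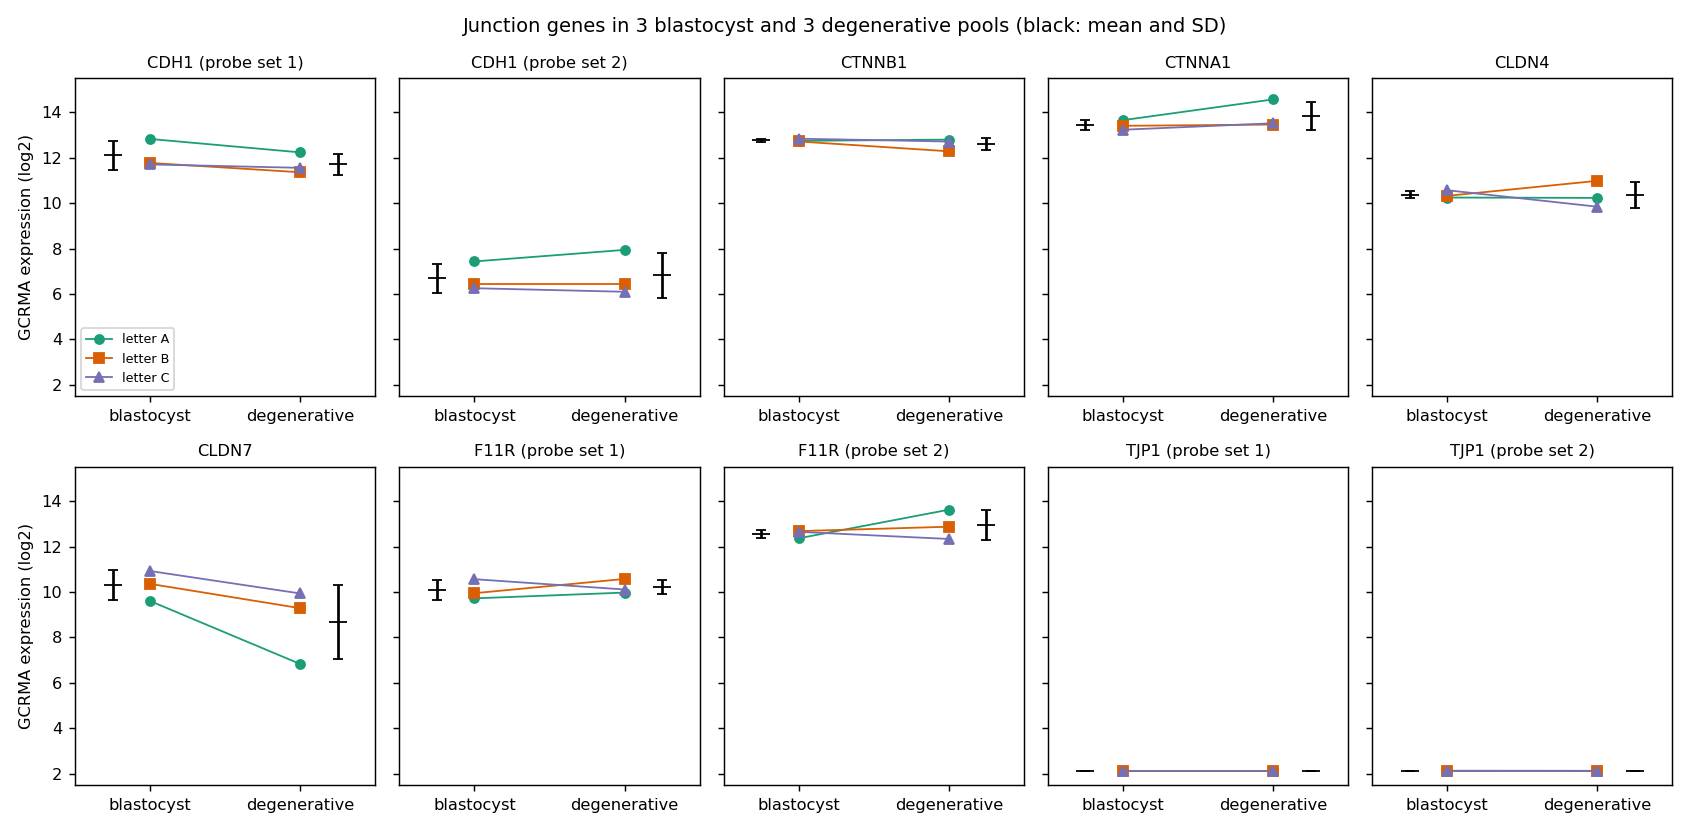
Log2 GCRMA expression (vertical axis) of the 10 probe sets of the measured junction genes in the 3 blastocyst and 3 degenerative pools. Points are pools, lines join pools of the same letter, and black marks give each group's mean and SD. The groups overlap in every panel, CLDN7 in degenerative pool A lies lowest at 6.82, and both TJP1 probe sets lie at 2.12.

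CDH1 was measured by a pair of probe sets. The first (NCBI Gene 282637) read 12.83, 11.78 and 11.71 in blastocyst pools A, B and C, and 12.24, 11.37 and 11.56 in degenerative pools A, B and C. The A pool was the highest in each group, and each degenerative pool was below the blastocyst pool of its letter, by -0.59, -0.41 and -0.15. The mean difference was -0.38 (SE 0.42, n = 3 per group, 95% interval -1.48 to 0.71, limma adjusted p = 0.747). The difference was -0.02 without blastocyst pool A and -0.64 without degenerative pool A.

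The second CDH1 probe set read 7.44, 6.42 and 6.26 in blastocysts and 7.95, 6.42 and 6.10 in degenerative embryos. Here too the A pools stood above the others, and the B pools of the groups had the same value. Its difference was 0.12 (SE 0.63, 95% interval -1.53 to 1.76, limma adjusted p = 0.989). The probe sets thus gave opposite signs for E-cadherin, both within their SE in this fit, and the sign of the second turned to -0.44 without degenerative pool A. With the letters as a block, the SE of the first was 0.12 (95% interval -0.78 to 0.01, limma adjusted p = 0.531) and that of the second 0.18.

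CTNNB1, whose protein binds the tail of E-cadherin and also acts in Wnt signalling, was the steadiest member. Its probe set (NCBI Gene 539003) read 12.75, 12.72 and 12.85 in blastocysts and 12.80, 12.29 and 12.72 in degenerative embryos. All 6 pools fell within 0.56, the narrowest range among the members above the floor. Degenerative pool B was the lowest. The difference was -0.17 (SE 0.15, 95% interval -0.57 to 0.24, limma adjusted p = 0.737), -0.01 without degenerative pool B and -0.27 without degenerative pool A.

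CTNNA1 (NCBI Gene 526848), which links the cadherin complex to actin, read 13.66, 13.41 and 13.24 in blastocysts and 14.58, 13.47 and 13.52 in degenerative embryos. Each degenerative pool was above the blastocyst pool of its letter, by 0.91, 0.06 and 0.29, but degenerative pools B and C were below blastocyst pool A. The difference was 0.42 (SE 0.35, 95% interval -0.51 to 1.34, limma adjusted p = 0.737). Without degenerative pool A it was 0.06.

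Among the tight junction members, CLDN7 had the widest spread, with a range of 4.10 over the 6 pools. CLDN7 and CLDN4 are claudins, the membrane proteins that form the strands of the seal. The probe set of CLDN7 (NCBI Gene 512975) read 9.60, 10.36 and 10.92 in blastocysts and 6.82, 9.28 and 9.93 in degenerative embryos. The A pool was the lowest of each group, and degenerative pool C lay between blastocyst pools A and B. The same-letter differences were -2.78, -1.07 and -0.99. The mean difference was -1.61 (SE 0.94, 95% interval -4.09 to 0.86, limma adjusted p = 0.679), a 3.06-fold lower mean signal in degenerative embryos. With the letters as a block its SE was 0.50 (95% interval -3.29 to 0.06, limma adjusted p = 0.531). Without degenerative pool A the mean difference was -0.68. Without both A pools the groups did not overlap, but fewer pools were then left to overlap. In pooled embryos, fewer cells with a transcript and less of it per cell cannot be told apart.

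For CLDN4 (NCBI Gene 414921) the group means were 10.38 and 10.36, with pools at 10.25, 10.33 and 10.57 in blastocysts and at 10.24, 10.99 and 9.85 in degenerative embryos. The degenerative pools held both the highest and the lowest of the 6 values. Its SD was 0.17 among blastocysts and 0.58 among degenerative embryos. The difference was -0.03 (SE 0.32, 95% interval -0.87 to 0.82, limma adjusted p = 1), 0.0033 with each array centred on its median, and from -0.34 to 0.23 with 1 pool left out.

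F11R (NCBI Gene 281258) encodes junctional adhesion molecule A, an immunoglobulin-like protein of the tight junction membrane. Its second probe set read 12.36, 12.68 and 12.65 in blastocysts and 13.63, 12.87 and 12.34 in degenerative embryos. Degenerative pool A was the highest and degenerative pool C the lowest, with all blastocyst pools between them. The difference was 0.38 (SE 0.36, 95% interval -0.56 to 1.32, limma adjusted p = 0.737), 0.04 without degenerative pool A. The first read 9.72, 9.95 and 10.56 in blastocysts and 9.97, 10.57 and 10.11 in degenerative embryos. Its highest pools, blastocyst C and degenerative B, came from opposite groups and were nearly equal. The difference was 0.14 (SE 0.29, 95% interval -0.61 to 0.90, limma adjusted p = 0.881), and its sign turned, to -0.04, without blastocyst pool A.

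TJP1 (NCBI Gene 407102), the scaffold that ties claudins and junctional adhesion molecules to actin, could not be compared. Its first probe set lay at 2.12 on all 6 arrays, and its second lay between 2.12 and 2.13. Both were thus at the floor in blastocysts as well as in degenerative embryos, which gives no level for the transcript. Of the probe sets tested, 7871 carry no gene symbol here. The study's text counts TJP1 among its differentially expressed genes. Which probe set it used for TJP1 is not given in the sources used here.

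Of the 8 member probe sets above a mean of 5 in either group, 6 had a larger SD in degenerative embryos, and the first probe sets of CDH1 and F11R had a larger one in blastocysts. This is 75.0 percent, near the 71.3 percent of the 11690 probe sets of the array above that level. The median SD was 0.32 in blastocysts and 0.60 in degenerative embryos, against 0.29 and 0.50 over those of the array. The A pool was the highest in both groups for 3 of the 8, both CDH1 probe sets and CTNNA1, and the lowest in both for 2, CLDN7 and the first F11R probe set. Together this makes 62.5 percent, beside 50.6 percent over the array. Degenerative pool A was the pool farthest from its own group mean for 4 of the 8.

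**Figure D2:**
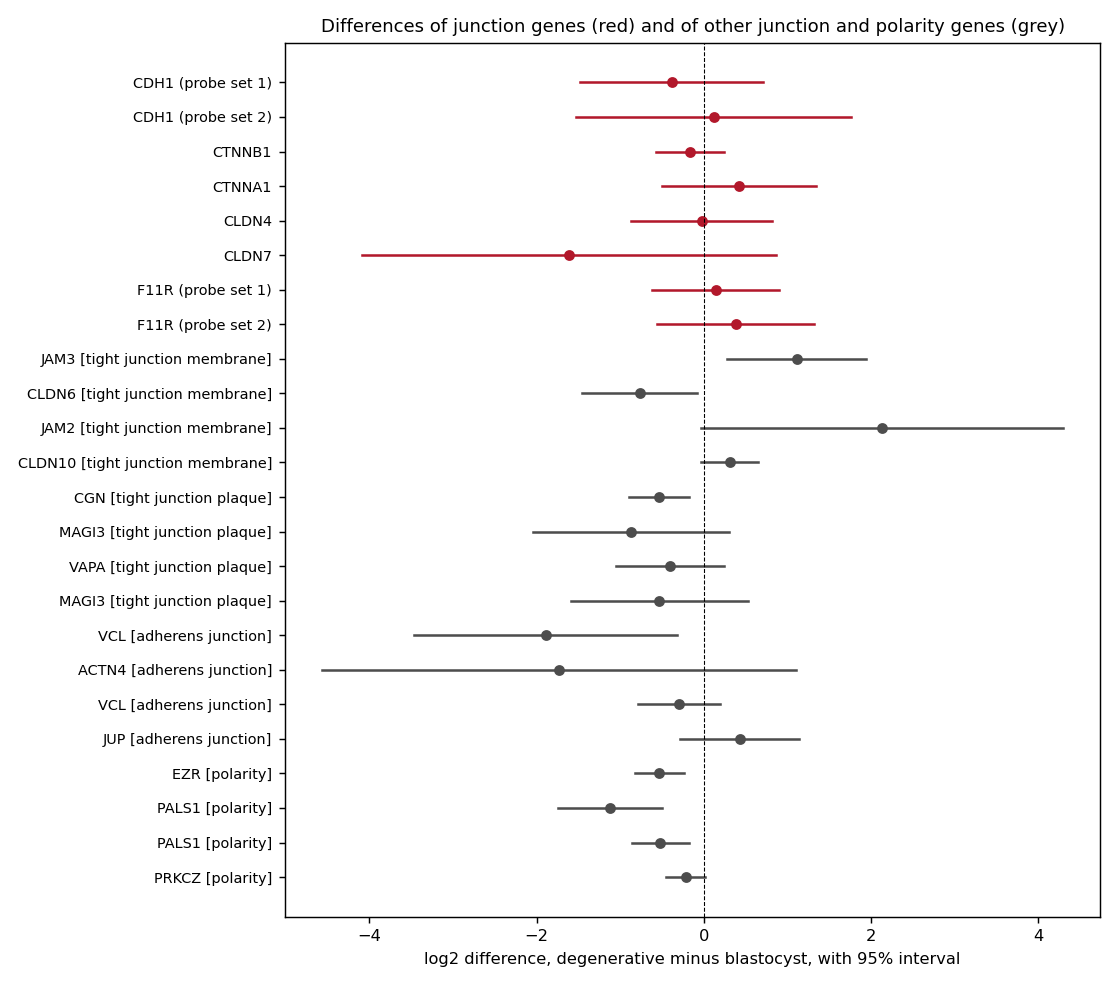
Log2 differences, degenerative minus blastocyst (horizontal axis), with 95% limma intervals from 3 pools per group. Red marks the 8 member probe sets above a mean of 5, and grey the 4 probe sets with the smallest limma p in each of 4 groups of other junction and polarity genes. All red intervals cross 0, with that of CLDN7 the widest from -4.09 to 0.86. Before adjustment, the intervals of CLDN6, CGN, the first VCL probe set, EZR and both PALS1 probe sets lie below 0 and that of JAM3 above it.

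Another 90 genes of the same structures were read from the same fit, in 4 groups: other membrane proteins of tight junctions, proteins of their inner plaque, other adherens junction proteins, and proteins of apical and basal polarity. Of these, 50 had a probe set, with 87 probe sets in all, of which 69 could be tested. None of the 69 passed limma or SAM, and the smallest limma adjusted p was 0.459. An unadjusted limma p under 0.05 was found for 7, or 10.1 percent beside 8.61 percent of the array, with 1 higher in degenerative embryos and 6 lower. With the letters as a block the number was 11, or 15.9 percent beside 9.45 percent of the array, and 10 of the 11 were lower. Over the array too, more were lower: 998 against 633 higher without the block, and 1161 against 628 with it. Both PALS1 probe sets are among the lower ones in each count. A difference of more than 1 was seen for 15 of the 69, or 21.7 percent beside 10.9 percent. Groups that did not overlap were seen for 9 with degenerative embryos lower, or 13 percent beside 8.93 percent, and for 3 with degenerative embryos higher, or 4.35 percent beside 6.48 percent. The median difference was -0.01, the value of a probe set near the floor. For the 51 probe sets above a mean of 5 in either group it was -0.14, with 22 higher and 29 lower. Over the probe sets of the array above that level it was -0.02.

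The polarity group held the smallest p values in the fit without the block. With the letters as a block, EPB41L5 of the adherens junction group had the smallest unadjusted limma p, 0.0092, beside 0.018 for EZR. EPB41L5 differed by -0.41, with a limma adjusted p of 0.491 in that fit. Of the 15 tested probe sets of the polarity group, 7 were higher in degenerative embryos and 8 lower. EZR, ezrin, ties actin to the apical membrane. It read 14.54, 14.31 and 14.22 in blastocysts and 13.87, 13.71 and 13.90 in degenerative embryos. Every degenerative pool was below every blastocyst pool, with a difference of -0.53 (SE 0.11, limma adjusted p = 0.459).

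PALS1, a scaffold of the apical Crumbs complex that joins polarity proteins to tight junctions, had both of its probe sets without overlap. The first read 11.41, 10.91 and 10.94 in blastocysts and 9.94, 9.64 and 10.32 in degenerative embryos, a difference of -1.12 (SE 0.24, limma adjusted p = 0.470). The second read 13.48, 13.16 and 13.04 against 12.66, 12.71 and 12.75, a difference of -0.52 (SE 0.13, limma adjusted p = 0.487). Each was lower in all 3 degenerative pools, and with any 1 pool left out the differences ranged from -1.30 to -0.96 and from -0.61 to -0.39. PRKCZ, a protein kinase of the apical complex, differed by -0.22 (limma adjusted p = 0.601), with groups that overlapped.

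**Figure D3:**
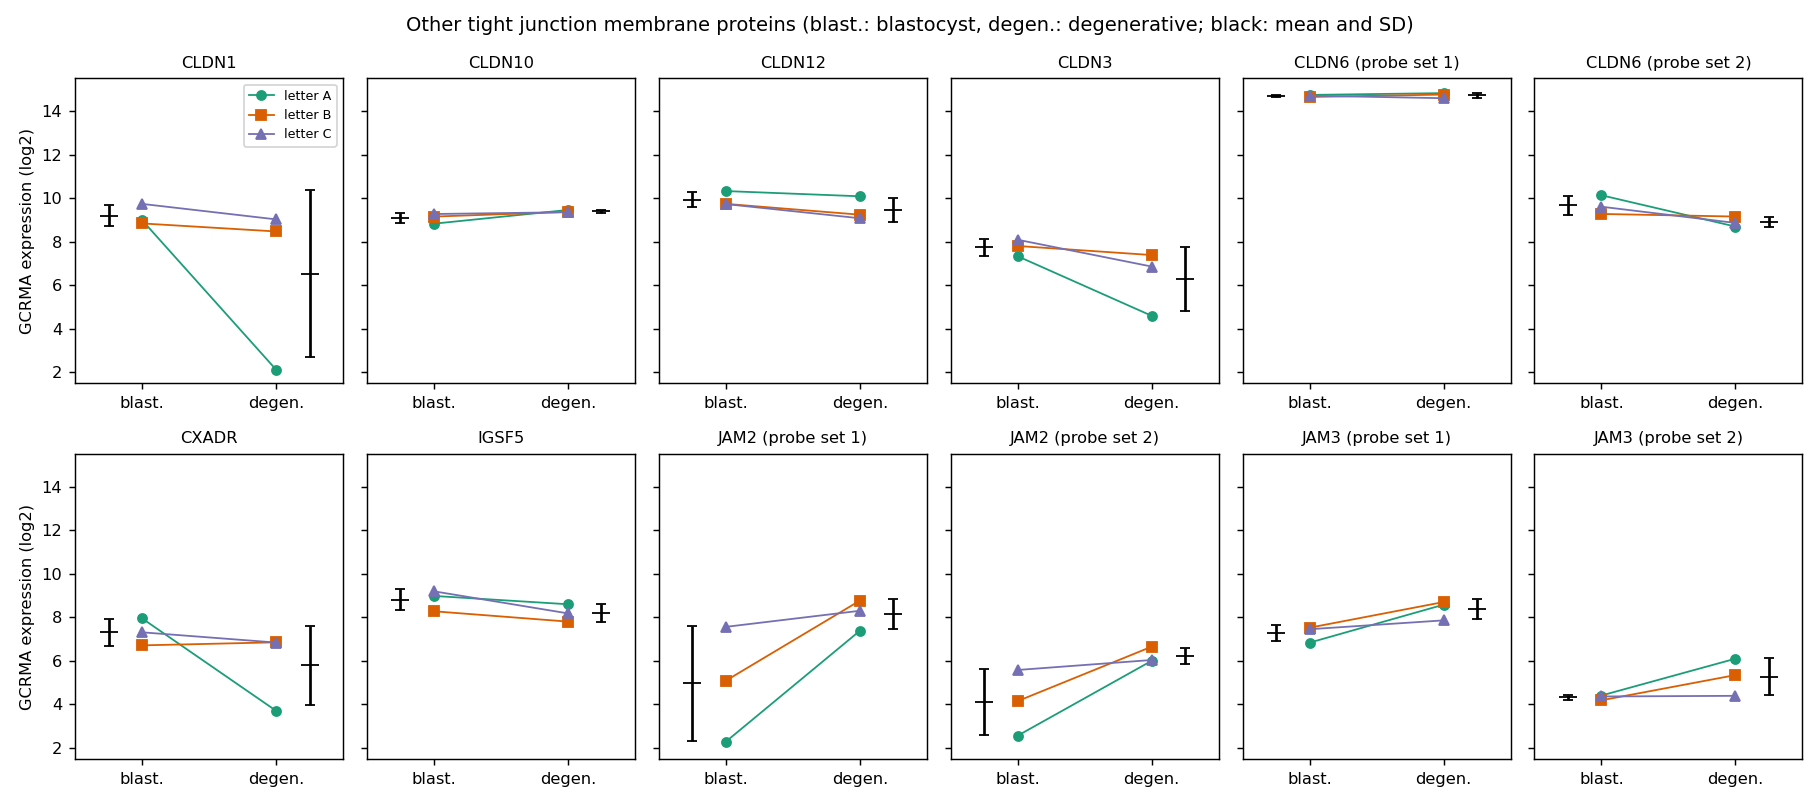
Log2 GCRMA expression (vertical axis) of the 12 probe sets of other tight junction membrane proteins above a mean of 5 in either group, in 3 blastocyst and 3 degenerative pools. Points are pools, lines join pools of the same letter, and black marks give mean and SD. CLDN1 in degenerative pool A lies at 2.12 with the other 5 pools above 8, and all degenerative pools of the first JAM3 panel lie above all blastocyst pools.

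Other membrane proteins of tight junctions went both ways, with 7 of 15 tested probe sets higher in degenerative embryos and 8 lower. JAM3, a relative of F11R, read 6.84, 7.53 and 7.46 in blastocysts and 8.58, 8.71 and 7.86 in degenerative embryos with its first probe set. The groups did not overlap, and the difference was 1.11 (SE 0.32, limma adjusted p = 0.532). Its other probe set differed by 0.96 (SE 0.46), with overlap. JAM2, another relative, read 2.57, 4.16 and 5.59 in blastocysts and 6.01, 6.66 and 6.04 in degenerative embryos with its second probe set. The blastocyst pools spread far more than the degenerative ones, and the difference was 2.13 (SE 0.83, limma adjusted p = 0.587), 1.36 without blastocyst pool A. Its other probe set differed by 3.17 (SE 1.46), with blastocyst pools at 2.29, 5.09 and 7.57. Thus both probe sets of JAM2 and of JAM3 had a higher mean in degenerative embryos, as did those of F11R, and none of these 6 passed the adjusted threshold. IGSF5, of the same group and named after its values were seen, went the other way, by -0.62 (SE 0.33, limma adjusted p = 0.652). Its groups overlapped, and its same-letter differences were -0.38, -0.47 and -1.01.

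Claudins beside CLDN4 and CLDN7 were seen mostly at the lower end of the scale. Of all 14 claudin genes with a probe set, CLDN4 and CLDN7 included, 8 of 19 probe sets stayed under 3 on all arrays. Another 8, for 7 genes, lay above a mean of 5 in either group, and of these 6 had a lower mean in degenerative embryos and 2 a higher one. The 6 take in CLDN7 and also CLDN4, at -0.03. Of the 11690 probe sets of the array above that level, 6071 were lower and 5619 higher. Degenerative pool A was the lowest of the 6 pools for 4 of these 8 claudin probe sets. The share of the array with that pool lowest is not given.

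CLDN6, a claudin of early epithelia, read 10.13, 9.28 and 9.61 in blastocysts and 8.69, 9.16 and 8.86 in degenerative embryos with its second probe set. The groups did not overlap, and the difference was -0.77 (SE 0.26, limma adjusted p = 0.563). Its other probe set, between 14.59 and 14.83 on all arrays, differed by 0.03 (SE 0.08). CLDN10, a claudin that forms ion pores, was the only claudin without overlap in the higher direction, with a difference of 0.31 (SE 0.13, limma adjusted p = 0.605), 0.18 without blastocyst pool A.

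CLDN1, CLDN3 and CXADR were picked after their values were seen, since like CLDN7 each was lowest in degenerative pool A. CLDN1 read 8.99, 8.84 and 9.74 in blastocysts and 2.12, 8.47 and 9.03 in degenerative embryos. CLDN3 read 7.33, 7.80 and 8.09, then 4.60, 7.39 and 6.86. CXADR, an immunoglobulin-like adhesion protein of tight junctions, read 7.95, 6.72 and 7.32, then 3.71, 6.86 and 6.85. The differences, -2.65, -1.46 and -1.52, became -0.44, -0.62 and -0.48 without degenerative pool A.

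In the inner plaque of the tight junction, 7 of 17 tested probe sets were higher in degenerative embryos and 10 lower. CGN, cingulin, which binds ZO proteins and actomyosin, read 9.08, 8.73 and 8.69 in blastocysts and 8.15, 8.37 and 8.39 in degenerative embryos. The groups did not overlap, and the difference was -0.53 (SE 0.14, limma adjusted p = 0.496). VAPA, a vesicle membrane protein that binds occludin, differed by -0.40 (limma adjusted p = 0.696) without overlap, or by -0.14 with degenerative pool A left out. The scaffold MAGI3 differed by -0.87 without overlap (limma adjusted p = 0.642) with one probe set and by -0.53 with overlap (limma adjusted p = 0.737) with another. With degenerative pool A left out these were -0.45 and -0.92, and with degenerative pool B left out the latter was -0.29. For TJP3, a relative of TJP1, the probe set above a mean of 5 differed by -0.07 (SE 0.31).

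Other adherens junction proteins gave 12 of 22 tested probe sets higher in degenerative embryos and 10 lower. VCL, vinculin, which reinforces the bond of alpha-catenin to actin, ranged from 7.50 to 9.16 in blastocysts and from 5.82 to 7.17 in degenerative embryos with its first probe set. The groups did not overlap, and the difference was -1.89 (SE 0.60, limma adjusted p = 0.542). Its other probe set differed by -0.30 (limma adjusted p = 0.708), with overlap, and by -0.14 without degenerative pool B. The actin cross-linker ACTN4 read 10.93, 11.75 and 11.80, then 7.49, 10.85 and 10.94 with its first probe set. Its difference of -1.73 (limma adjusted p = 0.70) became -0.60 without degenerative pool A, and its second probe set differed by 0.03 (SE 0.23). JUP, plakoglobin, a close relative of beta-catenin, differed by 0.43 (limma adjusted p = 0.708), 0.16 without degenerative pool A. LMO7, which binds afadin and alpha-actinin, was named after its values were seen. It differed by -1.20, or by -0.33 without degenerative pool A. The groups did not overlap, but only barely, with degenerative pool C at 7.470 and blastocyst pool C at 7.473.

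The other cadherins, also named after their values were seen, were far less steady than CDH1. CDH2, N-cadherin, read 7.07, 8.65 and 10.31 in blastocysts and 5.60, 10.79 and 11.12 in degenerative embryos. The A pool was the lowest of each group, the reverse of CDH1, and the difference of 0.49 (SE 1.86) was 2.27 when degenerative pool A was left out and -0.48 when C was. CDH11 read 2.60, 6.49 and 8.04, then 5.58, 9.08 and 8.88 with its first probe set, a difference of 2.1 (SE 1.82), or of 0.58 without blastocyst pool A. With this probe set each degenerative pool was above the blastocyst pool of its letter, by 2.98, 2.59 and 0.84. The second CDH11 probe set, below a mean of 5 in both groups, differed by 0.68 (SE 1.03). Its same-letter differences went both ways, at 0.44, 2.38 and -0.78. Both CDH5 probe sets, for the cadherin of blood vessels, were at the floor.

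**Figure D4:**
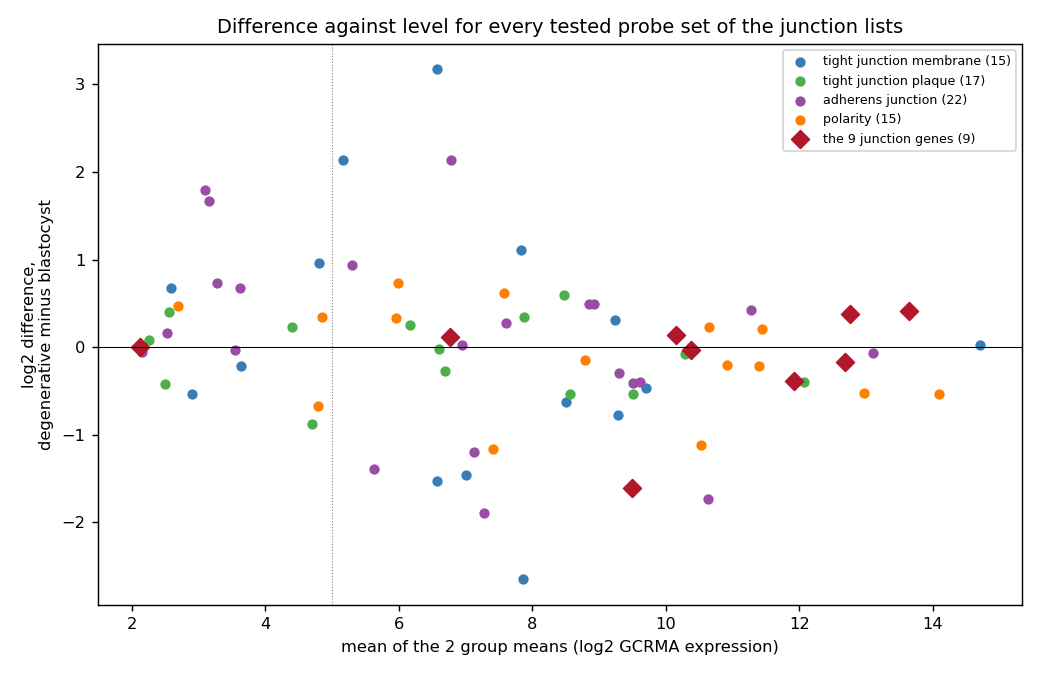
Log2 difference, degenerative minus blastocyst (vertical axis), against the mean of the group means (horizontal axis, log2 GCRMA expression) for every tested probe set of the junction genes, coloured by group. The dotted line marks a mean of 5, and levels of different probe sets are not comparable as amounts of RNA. Apart from CLDN7 at -1.61, the member probe sets (diamonds) lie between -0.38 and 0.42. Of the 69 other probe sets, 15 differ by more than 1, or 21.7 percent beside 10.9 percent of the array.

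Markers of the cell types in these embryos were read beside the junction genes. Trophectoderm carries most of the tight junctions, and of 9 of its markers 5 had a probe set. KRT18, a keratin of this epithelium, differed by -0.06, KRT19, another, by -1.18 and TEAD4, a factor of its lineage, by 0.02, with limma adjusted p from 0.668 to 1. KRT19 read 11.61 in degenerative pool A and 13.31 to 14.52 elsewhere, and differed by -0.51 without that pool. TFAP2A, a transcription factor of trophectoderm named after its values were seen, read 9.26, 8.96 and 8.70 in blastocysts and 4.78, 6.98 and 6.47 in degenerative embryos. All degenerative pools were below all blastocyst pools, with a difference of -2.90 (SE 0.63, limma adjusted p = 0.470). The summed linear signal of the 5 markers ranged from 55950 to 76710 in blastocysts and from 47630 to 58740 in degenerative embryos, which overlap. Their mean log2 level, in which each marker weighs the same, ranged from 10.7 to 11.45 in blastocysts and from 9.77 to 10.63 in degenerative embryos, which do not overlap. This level takes in TFAP2A at -2.90 and KRT19 at -1.18. The other markers in it, KRT18, TEAD4 and the keratin KRT8, differed by -0.06, 0.02 and -0.04.

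Of 6 markers of the inner cell mass and epiblast 2 had a probe set. POU5F1 differed by 0.48 without overlap, or by 0.31 with degenerative pool A left out. SOX2 differed by 1.03 with overlap, or by 0.68 with that pool left out. Their summed signal ranged from 5437 to 6421 in blastocysts and from 6686 to 10960 in degenerative embryos. Of 5 hypoblast markers 3 had a probe set, and GATA6, PDGFRA and GATA4 differed by -0.05, -0.03 and 1.17, with sums of 13900 to 18300 and of 13800 to 17600. That of GATA4 was 0.59 without degenerative pool B. None of these passed the limma threshold. The part of cell makeup in the values of CLDN7 and the other junction genes was not tested.

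Cells left from the follicle or the semen could also carry RNA. All 7 cumulus and granulosa markers had probe sets, with FOXL2 and AMH, which define granulosa cells, at the floor. HSD3B1, a steroid enzyme, read 11.51, 11.64 and 12.09 in blastocysts and 6.12, 11.52 and 11.12 in degenerative embryos, low in the same pool as CLDN7, and differed by -0.43 without that pool. HAS2 differed by 0.45 and TNFAIP6 by -0.82, or by -0.07 and -0.21 without the same pool. CYP19A1, the aromatase of granulosa cells, read 2.60, 4.87 and 6.69 in blastocysts and 2.55 to 2.75 in degenerative embryos with its first probe set, a difference of -2.08 (SE 1.09, limma adjusted p = 0.649). Its second probe set differed by 0.49 (SE 0.46), with degenerative pool A at 3.75 and the other pools at 2.28. The remaining CYP19A1 probe sets were at the floor. FSHR, the receptor of follicle-stimulating hormone, differed by -0.52 (SE 0.23) and stayed at or below 3.03. CYP19A1 and FSHR were named after their values were seen. The summed signal ranged from 4701 to 5963 and from 3528 to 4944. All 5 sperm markers had probe sets, with ODF1 and TNP2 at the floor. TNP1, PRM1 and AKAP4 differed by -0.77, 0.20 and 0.14. That of TNP1 was -0.07 without blastocyst pool C and -1.56 without blastocyst pool A. The sums were low in both groups, from 45.5 to 195.3 and from 46.7 to 77.0. The part of such cells in the junction values was not tested.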

How the data were processed

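Each pool's RNA was amplified linearly, labelled and put on its own array. The authors deposited log2 values per probe set, obtained with GCRMA (2.14.1, as the submitters' notes give it). Arrays have no read depth, so the number of pools limits their precision. Differences were computed from these values by lmFit and eBayes of limma 3.58.1 (R 4.3.3), with p-values adjusted after Benjamini and Hochberg and called up to 0.15, the rate that the study set for SAM. SAM was rebuilt for comparison, with 20 relabelings. Of 24036 probe sets, 20 controls and 5079 with 1 value on all arrays were left out. Fits without a pool also dropped probe sets constant on the remaining arrays. Symbols are those of the platform annotation, brought up to date by gene ID in a RefSeq gene table, which matched all 10 member probe sets. Both tests were checked on simulated data, with changes planted only in probe sets above a mean of 5 with little spread, and noise independent between pools. The median residual SD, the spread left after the fit, was 0.47 for the tested member probe sets and 0.38 over the array. The check thus does not show how often changes in genes as variable as the members would be found.

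Members and lists were chosen with earlier results of these data known. Named were all members, in each of the 4 other groups the 4 probe sets with the smallest limma p above a mean of 5 in either group, and of each marker list up to 3 genes with the highest signal. The pools held separate embryos, and the p-values rest on their spread. Nothing states that a letter marks a day or batch common to both groups. Deviations of same-letter pools from their group means correlated across probe sets, with r = 0.373 for A, 0.180 for B and 0.275 for C. Only for A did each pool correlate best with the pool of its own letter. Degenerative pool B and blastocyst pool C each correlated better with a pool of another letter. The letters were also used as a replicate block, though whether they pair the pools is not known. With this block 0 probe sets of the array passed, in place of 4, and 0 of the members.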

Additional observations from a re-analysis of the deposited data

How the results depend on the processing

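Under the alternatives run, 0 probe sets of the 9 junction genes and 0 of the 90 other genes passed. These were centring each array, keeping dim or constant probe sets out or in, a trended and robust prior, the replicate block, 1 probe set per gene (for the 9 junction genes only), each pool left out, both A pools left out (chosen after seeing the data), SAM and thresholds of 0.25 and 0.05. The threshold of 0.05 and 1 probe set per gene use the p-values of the main fit, so they could add no call. The count over the array, 4, was 1 with arrays centred, 1 with bright probe sets only (a mean of at least 5), 1 with the trended prior, 0 with the replicate block, where 1789 had an unadjusted p under 0.05, 0 without both A pools, 67 with SAM, 30 at 0.25 and 0 at 0.05. It ranged from 0 to 33 with 1 pool left out, highest without degenerative pool A. The cause was not tested. The replicate block changed no other call. Member probe sets without overlap went from 0 to between 0 and 2 with 1 pool left out, and to 4 without both A pools, with fewer pools to overlap. The share of the array without overlap is not given for these smaller sets of pools, so the counts have nothing to be set against.

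Of the differences of named probe sets under these alternatives, 510 kept their sign and 26 did not, and none passed. The 510 include settings that leave each difference as it is, so that its sign could not change. These are dim or constant probe sets kept out or in, the trended prior and the replicate block. With 1 pool left out, the range was -0.44 to 0.48 for the second CDH1 probe set, -0.34 to 0.23 for CLDN4, -0.0356 to 0.39 for the first F11R probe set, -0.48 to 2.27 for CDH2, -0.15 to 0.0556 for KRT18, -0.26 to 0.19 for TEAD4, -0.15 to 0.0464 for GATA6, -0.26 to 0.24 for PDGFRA, -0.0748 to 0.87 for HAS2 and -0.00755 to 0.30 for PRM1. Centring gave 0.0033 for CLDN4 and 0.0022 for PDGFRA. Leaving out both A pools gave -0.0785 for the second CDH1 probe set and -0.0597 for the second F11R probe set. Signal at the floor limits TJP1 and the dim claudins.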

Other observations

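The profile of CLDN7 over the 6 pools was set against that of every probe set with 1 gene symbol, each centred on its own mean. The 3 nearest were COX6B2, a subunit of cytochrome c oxidase, FMC1, an assembly factor of the mitochondrial ATP synthase, and PTRHD1. They lay at root mean square distances of 0.237, 0.244 and 0.25 on the log2 scale. All of them were lowest in degenerative pool A, at 3.16 for COX6B2, 6.01 for FMC1 and 4.69 for PTRHD1. Their differences were -1.48, -1.28 and -1.40 beside -1.61 for CLDN7, and none passed the limma threshold. This is a description of 6 pools, and says nothing of shared function.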
